A study of Rattus norvegicus with 16 samples.

Results

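Cytosolic ribosomal proteins are the proteins that build the small and the large subunit of the ribosome in the cytosol. Their genes were taken from the deposited count table as the protein-coding rows whose names consist of Rps or Rpl, a number and, where present, 1 of the letters a, x, y or l and a further number, together with the stalk proteins Rplp0, Rplp1 and Rplp2, leaving out the kinases whose names begin with Rps6k. The rule gave 83 of the 32623 genes in the table, 32 for the small and 51 for the large subunit. The data come from an indirect co-culture of rat kidney cells, in which NRK-52E cells grew on permeable filter inserts above NRK-49F cells on the plastic of the well. NRK-52E is an epithelial line and NRK-49F a fibroblast line, both from normal rat kidney. After 24 h without serum the co-cultures were kept for 48 h at pH 7.4, the control, or at pH 6.0, extracellular acidosis; the labels round these values to 7 and 6. Each cell line and pH had 4 libraries of poly(A)-enriched RNA, numbered N1 to N16 in the labels, and nothing in the labels says that they came from separate cultures, so the p-values measure the spread between these libraries, which may be technical. At pH 7.4 the library totals were 18591104, 20612657, 19673671 and 17760185 counts for NRK-52E (N1, N2, N5 and N6) and 19162294, 21470813, 17518187 and 27607214 for NRK-49F (N9, N10, N13 and N14). At pH 6.0 they were 16844811, 21430646, 23856187 and 20967378 for NRK-52E (N3, N4, N7 and N8) and 23872685, 16201084, 34314389 and 34784862 for NRK-49F (N11, N12, N15 and N16).

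Every cytosolic ribosome needs about equal numbers of its many proteins, and making them takes up much of the protein synthesis of a growing cell. Most of their mRNAs begin with a run of pyrimidines, the terminal oligopyrimidine tract, through which the kinase complex mTORC1 and the RNA-binding protein Larp1 control their translation and stability together. Because their mRNAs are abundant in almost all cells, some of these genes serve as references in PCR.

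Of the 83 genes, 75 had at least 100 counts in every library. Rpl23a and Rpl10a were listed at 0 in all 16 libraries, and 5 genes stayed under 50 counts in each library (Rps4y2, Rpl10l, Rpl30l1, Rpl3l and Rps10l1). Ribosomal protein genes have many processed copies in mammalian genomes, and the authors counted fragments with several matches at every match, so each value below belongs to a row and near-identical copies share fragments. By name, 68 rows lay on the chromosome that RefSeq (GRCr8) gives for that gene and 13 on another one, among them the rows named Rps29, Rpl38, Rpl39, Rps27a and Rps4x. Rpl10l and Rpl39l had no gene of that name there. Levels are given in FPM (counted fragments per 1000000, with library totals scaled by TMM factors over the 16 libraries), always in the order of the library numbers. They are compared between groups and not between genes, since no lengths were used.

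The labelled cell types were set against marker genes. The fibroblast markers Pdgfra and Prrx1 averaged 395 and 65.5 FPM in NRK-49F at pH 7.4, and 0.289 and 0.0103 FPM in NRK-52E. Col1a1 averaged 6256 FPM in NRK-49F and 23.7 FPM in NRK-52E at pH 7.4, whereas Col3a1, on the same list, averaged 462 and 6268 FPM. Of the 12 epithelial markers, 6 stayed below 1 FPM in each NRK-52E library at pH 7.4, among them Epcam, Krt18 and Cldn4, while 9 did in each NRK-49F library. Others on the list were called higher in NRK-52E than in NRK-49F at that pH, with means of 41.5 and 0 FPM for Ocln, 36.9 and 0.467 FPM for Krt7, 374 and 131 FPM for Tjp1, and 1.63 and 0 FPM for Cdh1. Krt8 was called lower in NRK-52E than in NRK-49F, with 434 and 854 FPM. Of the other fibroblast markers, Lum, Twist1, Twist2, Pdgfrb and Postn were called lower in NRK-52E at pH 7.4. Pdgfrb had means of 46.8 FPM in NRK-52E and 87.9 FPM in NRK-49F, and Postn 45.4 and 120 FPM. Col5a1 (371 and 344 FPM), Fbln1 (79.1 and 80.4 FPM) and Dcn (0.723 and 0.473 FPM) were not called, and Thy1 was listed at 0 in every library. NRK-52E libraries thus had little or no Pdgfra and Prrx1 but held other fibroblast markers. They also lacked several epithelial markers and had more Col3a1 than NRK-49F libraries. The 13 fibroblast markers summed to 6913, 6959.7, 6841 and 6646 FPM in NRK-52E at pH 7.4 and to 3537, 3326, 2921 and 2073 FPM at pH 6.0, most of it counted on Col3a1 at both pH values. In NRK-49F they summed to 7880.4, 8289, 7158 and 8495 FPM at pH 7.4 and to 10059, 9326, 9984 and 8344 FPM at pH 6.0, most of it counted on Col1a1, which averaged 6256 and 8276 FPM and was not called (0.40). Of 11 fibroblast markers tested in NRK-49F, 3 were called lower at pH 6.0, with log2 fold changes of -3.10 for Col3a1, -2.06 for Lum and -2.01 for Pdgfrb, and 1, Fbln1, was called higher (0.71). In NRK-52E 6 of 9 tested were called lower and 1, again Fbln1, higher (0.37). The lower sums in all 4 NRK-52E libraries at pH 6.0 accompany the higher ribosomal protein levels described next, and their part in them was not tested. The 12 epithelial markers summed to 887, 908, 876 and 891 FPM in NRK-52E at pH 7.4 and to 920.2, 971, 954 and 789 FPM at pH 6.0, most of it counted on Krt8 and Tjp1. Behind these similar sums, the markers moved in opposite directions: of 6 tested, 5 were called lower at pH 6.0, with log2 fold changes of -2.31 for Cdh1, -2.11 for Ocln, -1.63 for Krt19, -1.25 for Krt7 and -0.47 for Krt8, and 1, Tjp1, was called higher (0.62). These lower levels accompany the higher ribosomal protein levels as well, and their part in them was not tested. In NRK-49F, where most was counted on Krt8 at both pH values, the epithelial markers summed to 986, 937, 1065 and 965 and to 355, 346, 314 and 322 FPM. The 9 proximal tubule markers averaged 67.2 and 31.2 FPM together in NRK-52E, mostly on Aqp1 (-0.40, not called), and 169 and 467 FPM in NRK-49F, mostly on Ggt1 (1.87, called higher), with Hnf4a near 0 in both. Anpep, on the same list, was called lower in both lines at pH 6.0, with means of 28.7 and 1.23 FPM for NRK-52E (-4.55) and 30.3 and 10.9 FPM for NRK-49F (-1.47), and so was Slc5a2, which averaged below 1 FPM (-3.44 and -3.04). The 4 leukocyte markers averaged 2.86 and 5.63 FPM in NRK-52E and 82.4 and 243 FPM in NRK-49F, there nearly all Cd68, while Ptprc, which marks all leukocytes, was listed at 0 in every library. Of the 3 erythroid markers 1, Hbb, was in the table, at 0 in every library.

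Among the replicates, ribosomal protein genes deviated together, so the genes of 1 library are not independent observations. For 78 of the genes the log2 level was set against the mean of its group, and the median over genes was 0.25, -0.01, -0.34 and 0.10 in the NRK-52E libraries at pH 7.4 and 0.26, -0.34, -0.20 and 0.29 at pH 6.0. Above the group mean lay 76 of the 78 genes in N1 and 0 in N5 at pH 7.4, and at pH 6.0 it was 76 in N3 and in N8, 2 in N4 and 1 in N7. The corresponding medians in NRK-49F were -0.08, -0.01, 0.28 and -0.19 at pH 7.4 and -0.15, 0.18, 0.09 and -0.09 at pH 6.0. N13 stood highest, with 77 of the 78 genes above its group's mean, and N14 had 1. The median coefficient of variation of these genes was 17.3% and 22.6% in NRK-52E at pH 7.4 and 6.0, against 6.69% and 12.7% for 2122 other protein-coding genes with a mean of at least 100 FPM. In NRK-49F it was 15.4% and 12.6%, against 9.5% and 9.4%. These medians were higher for ribosomal protein genes than for the other genes in all 4 groups, and no test was made of that difference. The 78 genes were not filtered by level, and some of them, such as Rps29 and Rpl38, averaged below 100 FPM, so the 2 sets differ in level. Mitochondrial ribosomal proteins deviated in the same direction in some of these libraries: 72 of 74 lay above the group mean in N1 and in N8, 70 in N13, and 2 in N5.

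The 83 genes took 6.13, 5.25, 4.37 and 5.71% of all counts in the NRK-52E libraries at pH 7.4, and 8.31, 6.06, 6.51 and 8.78% at pH 6.0. The mean was 5.37 ± 0.754% at pH 7.4 and 7.41 ± 1.33% at pH 6.0 (SD, n = 4), but N4 at pH 6.0 lay just below N1 at pH 7.4, so the groups overlapped. In NRK-49F the share was 8.48, 8.85, 10.2 and 7.92% at pH 7.4 and 7.07, 8.64, 8.11 and 7.21% at pH 6.0, with means of 8.87 ± 0.989% and 7.76 ± 0.746%. These groups overlapped as well, and at pH 7.4 each NRK-49F library lay above each NRK-52E library. No test was made of these shares. In bulk RNA, fewer cells with high ribosomal protein expression and less of this RNA per cell cannot be told apart.

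**Figure D1:**
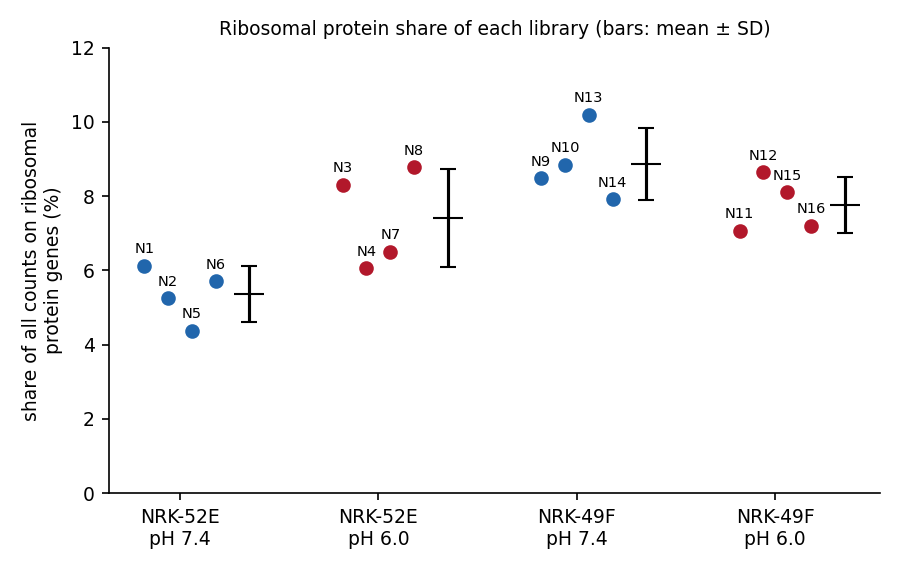
Share of all counts that fell on the 83 ribosomal protein genes, in percent, for each of the 16 libraries (points, with library numbers) by cell line and pH, with the mean and SD of each group of 4 beside them. The NRK-52E libraries lie lowest at pH 7.4, with a mean of 5.37%, and highest among NRK-49F libraries is N13 with 10.2%.

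In NRK-52E cells, acidosis went with higher levels of most ribosomal protein genes of both subunits. A gene was called where its false discovery rate was below 0.01 in both edgeR and DESeq2, fitted over all genes. Of the 77 ribosomal protein genes tested in NRK-52E, 48 were higher at pH 6.0, while 28.2% of all 13735 genes tested were. None was lower, by edgeR, by DESeq2 or at an unadjusted edgeR p below 0.05, while 28.5% of all genes were lower. The estimate was positive for 76 of the 77 genes, and their median log2 fold change was 0.74, against 0.00 over all genes tested. Both subunits had a median of 0.74, with 18 of 30 small subunit genes and 30 of 47 large subunit genes called. Within the 4 libraries that carry the number 21 in the column names of the table, whose meaning is not given in the sources used here, the median was 0.58 with 5 genes called higher (17.9% of all genes were), and within the 4 that carry 22 it was 0.89 with 3 (10.3%). Leaving out 1 library gave between 32 genes, without N2 or without N3, and 62, without N4. For fits without 1 library, here and below, the share of all genes called is not given. Such counts show how the calls of the family depend on single libraries and cannot be set against all genes. With library totals in place of TMM, the median of all genes moved to -0.21, and that of the ribosomal protein genes to 0.52, which is 0.73 above it, with 35 called higher; of all genes called, 37.6% were then higher, against 49.7% with TMM.

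The largest rises in NRK-52E were those of Rps27l and Rpl13a. Rps27l, a paralog of the small subunit protein Rps27 whose human counterpart is induced by p53, had 76.2, 59.6, 47.9 and 59.8 FPM at pH 7.4 and 415, 295, 354 and 449 FPM at pH 6.0. All 4 acidosis libraries lay far above all 4 controls (log2 fold change 2.65 ± 0.17 (SE), edgeR adjusted p = 4.2e-07). In NRK-49F it had 143, 146, 181 and 129 FPM at pH 7.4 and 162, 196, 163 and 159 FPM at pH 6.0. These ranges overlapped (log2 fold change 0.18 ± 0.12, edgeR adjusted p = 0.231), and the difference between the 2 cell lines was itself called (2.45 ± 0.21, edgeR adjusted p = 4.93e-08). Its relative Rps27 had 562, 459.7, 288 and 521 FPM in NRK-52E at pH 7.4 and 1187, 751, 827 and 1240.2 FPM at pH 6.0. Rps27 also rose without overlap, by 1.14 ± 0.22 on the log2 scale, in NRK-52E (edgeR adjusted p = 0.000934). In NRK-49F, Rps27 gave -0.37 ± 0.16 and was not called. Rpl13a, a large subunit protein, had 78.9, 65.6, 48.9 and 69.5 FPM in NRK-52E at pH 7.4 and 332, 206, 231 and 269.5 FPM at pH 6.0. The lowest acidosis library, N4, lay well above the highest control, N1 (log2 fold change 2.0 ± 0.18, edgeR adjusted p = 3.23e-06). In NRK-49F, Rpl13a had 99.8, 101, 132 and 88.9 FPM at pH 7.4 and 118, 133, 121 and 95.6 FPM at pH 6.0. There the groups overlapped, and the difference between the cell lines was 1.83 ± 0.23 on the log2 scale (edgeR adjusted p = 4.52e-06).

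Next in size among the named genes came Rps29, Rps25 and Rpl30. Rps25, a small subunit protein, had 273, 212, 141 and 231 FPM in NRK-52E at pH 7.4 and 565, 377, 428 and 644 FPM at pH 6.0. Rpl30, of the large subunit, had 463, 358, 333 and 442 FPM at pH 7.4 and 1042, 670.2, 766 and 1186 FPM at pH 6.0. For both genes the acidosis libraries lay above all controls, with N4 and N7 the lower pair and N3 and N8 the higher, as for the family as a whole. The log2 fold changes were 1.25 ± 0.22 for Rps25 (edgeR adjusted p = 0.0004) and 1.21 ± 0.19 for Rpl30 (edgeR adjusted p = 0.000189). The row named Rps29, which lies on another chromosome than the RefSeq gene, had 8.99, 5.78, 6.00 and 6.41 FPM at pH 7.4 and 27.3, 10.7, 11.1 and 26.2 FPM at pH 6.0. N4 and N7 were only slightly above N1, and N3 and N8 were far above all controls (log2 fold change 1.49 ± 0.33, edgeR adjusted p = 0.00221). Of the 48 genes called, 47 had no overlap between the groups, the exception being Rpl36a. Over all tested genes, called or not, groups did not overlap for 63.6% of the family and 62.9% of all genes, which is about the same. Of the called genes, 16 rose by at least 1 on the log2 scale. One of these, Rpl30l1, reached at most 35 counts in a library and is not described further. Estimates of the 29 tested genes that were not called lay near 0 for Rps9 (0.00), Rpl3 (0.03) and Rpl7l1 (-0.09), which were picked out after their values were seen.

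**Figure D2:**
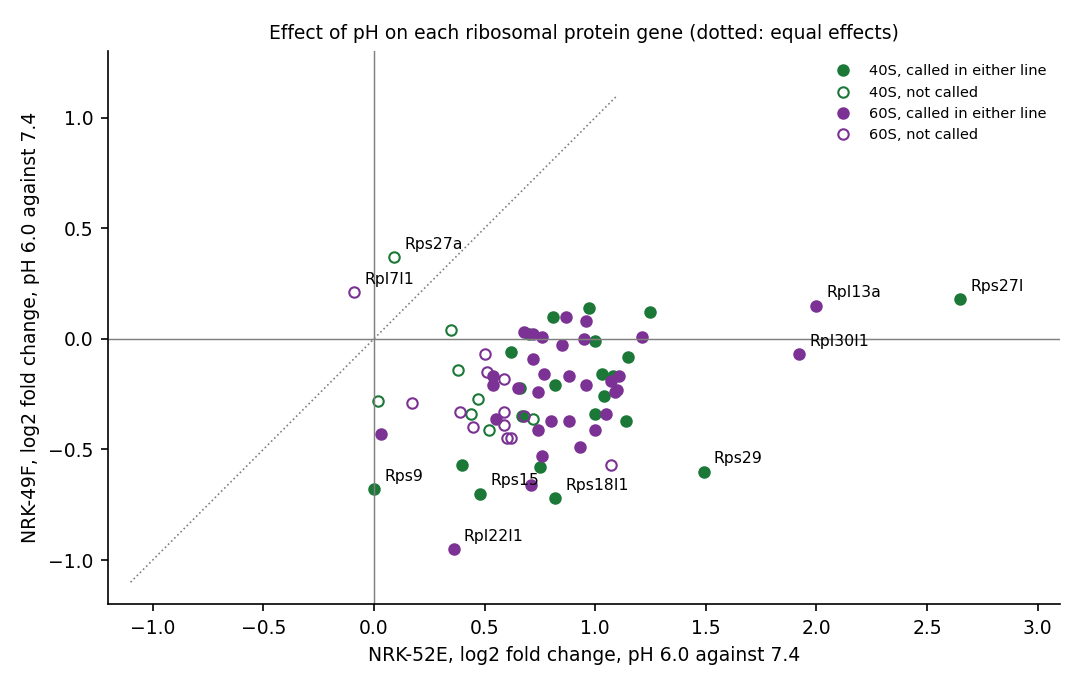
Log2 fold change at pH 6.0 against 7.4 in NRK-52E (horizontal) and NRK-49F (vertical) for the 76 ribosomal protein genes tested in both lines, green for the small and purple for the large subunit, filled where a gene was called in either line; the dotted line marks equal effects. Most genes lie right of 0 and a little below it, with Rps27l (2.65) and Rpl13a (2.0) farthest right and Rpl22l1 (-0.95) lowest.

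In NRK-49F cells most ribosomal protein genes had somewhat lower levels at pH 6.0, and few of these differences were called. Of 77 genes tested, 7 were lower at pH 6.0, while 19.4% of all 13339 genes tested were, so the called share of the family was below that of all genes. None was higher, by edgeR, by DESeq2 or at an unadjusted edgeR p below 0.05, while 18.4% of all genes were higher. Estimates were negative for 61 genes, and the median log2 fold change was -0.22, against 0.00 over all genes. Within the libraries numbered 20 the median was -0.12 (1 gene called higher and 4 lower, against 17.4% and 17.6% of all genes), and within those numbered 21 it was -0.32 (1 lower, against 7.08%). Without N11 or without N16, 3 genes were called lower, and without N10 or without N15, 4 were.

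The genes called lower in NRK-49F were Rpl22l1, Rps18l1, Rps15, Rps9, Rpl17, Rps12 and Rpl3. Rpl22l1, a paralog of the large subunit protein Rpl22, had 190.2, 189, 282 and 174 FPM in NRK-49F at pH 7.4 and 91.5, 118, 112 and 111 FPM at pH 6.0. The groups were well apart, with N13 highest (log2 fold change -0.95 ± 0.15, edgeR adjusted p = 0.000247). In NRK-52E it had 107, 93.8, 66.8 and 104 FPM at pH 7.4 and 155, 89.3, 89.3 and 140.5 FPM at pH 6.0. These groups overlapped, and the gene was not called there (0.36 ± 0.21). Rps9, a small subunit protein, had 5709, 5456, 6589 and 5498 FPM in NRK-49F at pH 7.4 and 3101, 3648, 3862 and 3899 FPM at pH 6.0. Every control lay above every acidosis library by a wide gap (log2 fold change -0.68 ± 0.12, edgeR adjusted p = 0.000375). In NRK-52E, Rps9 had 2149, 1839.9, 1471 and 1946 FPM at pH 7.4 and 2318, 1489.8, 1564 and 1979 FPM at pH 6.0. The ranges there lay over each other, with a log2 fold change of 0.00 ± 0.16. The difference of Rps9 between the cell lines was 0.67 ± 0.21 and was not called (edgeR adjusted p = 0.0118).

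Rps15, also of the small subunit, had 1176, 1298, 1648 and 1182 FPM in NRK-49F at pH 7.4 and 669, 922, 889 and 784 FPM at pH 6.0. Its groups did not overlap, and the log2 fold change was -0.70 ± 0.14 (edgeR adjusted p = 0.0014). Rpl17, of the large subunit, had 639, 683, 866 and 586 FPM at pH 7.4 and 379.9, 519.7, 491 and 372 FPM at pH 6.0. It was lower in each acidosis library (-0.66 ± 0.15, edgeR adjusted p = 0.00334), a call lost without N11 and without N16. Rps18l1, named for its likeness to Rps18, had 87.5, 127, 161 and 89.6 FPM at pH 7.4 and 62.3, 85.9, 73.0 and 61.5 FPM at pH 6.0. The highest acidosis library, N12, was only just below the lowest control, N9 (-0.72 ± 0.19, edgeR adjusted p = 0.00784), and the call was lost without N10, N11, N13, N15 or N16. Rps12, named after its value was seen, gave -0.57 ± 0.15 on the log2 scale, and its call was lost at least without N10, N11, N15 or N16. Rpl3 gave -0.43 ± 0.11, and its call was lost without N9, N10, N11, N15 or N16.

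Whether acidosis acted differently on the 2 lines was tested as an interaction over all 16 libraries. Cell line and growth support, filter or plastic, cannot be told apart in this test. The labels do not say which libraries of the 2 lines shared a co-culture, and the fit did not pair them. Of 78 ribosomal protein genes tested, 59 had a more positive effect in NRK-52E, while 19.3% of all 14679 genes tested did. None had a more negative effect, by edgeR, by DESeq2 or at an unadjusted edgeR p below 0.05, while 17.5% of all genes did. The median difference was 0.98 on the log2 scale, against -0.01 over all genes. Of the 48 genes called higher in NRK-52E, 45 were among the 59, and 9 of the 59 were called in neither cell line alone. The count was 28 without N3, the library that moved it most, and 37 with library totals, where the median of all genes moved to -0.25, that of the family to 0.73 (0.98 above it), and 33.8% of all called genes were more positive, against 52.4% with TMM. Within the libraries numbered 21, the only number that both lines carry, the median was 0.91 and 2 genes were called, with 7.66% of all genes called in that direction. Rps27l and Rpl13a had the largest differences among the named genes together with the row named Rps29 (2.06 ± 0.46, edgeR adjusted p = 0.0012).

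By role, the stalk proteins come first. Rplp0, Rplp1 and Rplp2 form the flexible stalk of the large subunit, to which elongation factors bind. Rplp0 had 2201, 1843, 1517 and 1887 FPM in NRK-52E at pH 7.4 and 3192, 2276, 2370.2 and 2963 FPM at pH 6.0. N4 at pH 6.0 was only slightly above N1 at pH 7.4, with no overlap (0.55 ± 0.15, edgeR adjusted p = 0.00654), and the call was lost without N2, N3, N5 or N6. In NRK-49F, Rplp0 had 4072, 4176, 4980.3 and 4084 FPM at pH 7.4 and 3274, 3634, 3512 and 3098 FPM at pH 6.0. All controls lay above all acidosis libraries, but the gene was not called (-0.36 ± 0.11, edgeR adjusted p = 0.0178). Rplp1 had 1381, 954, 745 and 1139 FPM in NRK-52E at pH 7.4 and 2189, 1482, 1673 and 2351 FPM at pH 6.0. Its groups were apart (0.88 ± 0.20, edgeR adjusted p = 0.00255), and the call was lost without N2 and without N3. Rplp2 had 371, 327, 296 and 369 FPM in NRK-52E at pH 7.4 and 1109.8, 737, 476 and 596 FPM at pH 6.0. Here N3 and N4 were the highest unlike for Rplp0 and Rplp1, where N3 and N8 were (1.11 ± 0.22, edgeR adjusted p = 0.00102). In NRK-49F, Rplp2 had 2249, 1771, 1900.4 and 1393 FPM at pH 7.4 and 1185, 1335, 2424 and 1588 FPM at pH 6.0. These groups overlapped widely, with N15 at pH 6.0 the highest of the 8.

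Rps6 is the small subunit protein that the S6 kinases phosphorylate downstream of mTORC1. It had 1283, 1089.5, 937 and 1223 FPM in NRK-52E at pH 7.4 and 2102, 1574, 1769 and 2419 FPM at pH 6.0. Each acidosis library was above each control (0.81 ± 0.15, edgeR adjusted p = 0.000758). In NRK-49F it had 1772, 1957, 2375 and 1814 FPM at pH 7.4 and 1778, 2119, 2512 and 2075 FPM at pH 6.0. Those groups overlapped (0.10 ± 0.13), and the difference between the lines was just called (edgeR adjusted p = 0.00996), a call lost under 13 of the 16 omissions of a single library, that is except without N1, N4 or N15.

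Rpl5 and Rpl11 sit together on the large subunit with its small ribosomal RNA, and outside the ribosome bind and inhibit Mdm2, which keeps p53 low. Rpl5 had 1059, 934, 783 and 1011 FPM in NRK-52E at pH 7.4 and 1963, 1364, 1559.9 and 1982 FPM at pH 6.0. It rose in all acidosis libraries (0.87 ± 0.15, edgeR adjusted p = 0.000342). Rpl11 had 762, 586, 489 and 641 FPM at pH 7.4 and 811, 508, 572 and 870.2 FPM at pH 6.0. Its groups overlapped widely, and it was not called (0.17 ± 0.19, edgeR adjusted p = 0.441). In NRK-49F, Rpl5 and Rpl11 gave 0.10 ± 0.12 and -0.29 ± 0.13 on the log2 scale, and neither was called.

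Of 5 genes used as references in PCR, Rplp0, Rpl13a and Rpl19 were called higher at pH 6.0 in NRK-52E, and Rps18 and Rpl32 were not. Rpl19 had 1026, 821, 698 and 919 FPM at pH 7.4 and 1977, 1360.3, 1558 and 2188 FPM at pH 6.0. The acidosis libraries were all higher, by 1.05 ± 0.17 on the log2 scale (edgeR adjusted p = 0.000265). In NRK-49F, Rpl19 had 2801, 2984, 3627 and 2444 FPM at pH 7.4 and 2175, 2808, 2487 and 1940.0 FPM at pH 6.0. The groups overlapped there (-0.34 ± 0.15). Rps18 had 842, 758, 585 and 799 FPM in NRK-52E at pH 7.4 and 1284, 806, 869 and 1284 FPM at pH 6.0. N4 lay among the controls (0.52 ± 0.18, edgeR adjusted p = 0.0231). Rpl32 had 800.5, 694, 629 and 767 FPM at pH 7.4 and 1336, 800.2, 884 and 1368 FPM at pH 6.0. N4 was marginally below N1, and the other acidosis libraries were higher (0.62 ± 0.18, edgeR adjusted p = 0.0107). In NRK-49F the 5 genes were not called, with log2 fold changes of -0.36 for Rplp0, 0.15 for Rpl13a, -0.41 for Rps18, -0.34 for Rpl19 and -0.45 for Rpl32. The interaction was called for all 5, between 0.89 for Rplp0 and 1.83 for Rpl13a, but not for Rps18 or Rpl32 without N3.

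**Figure D3:**
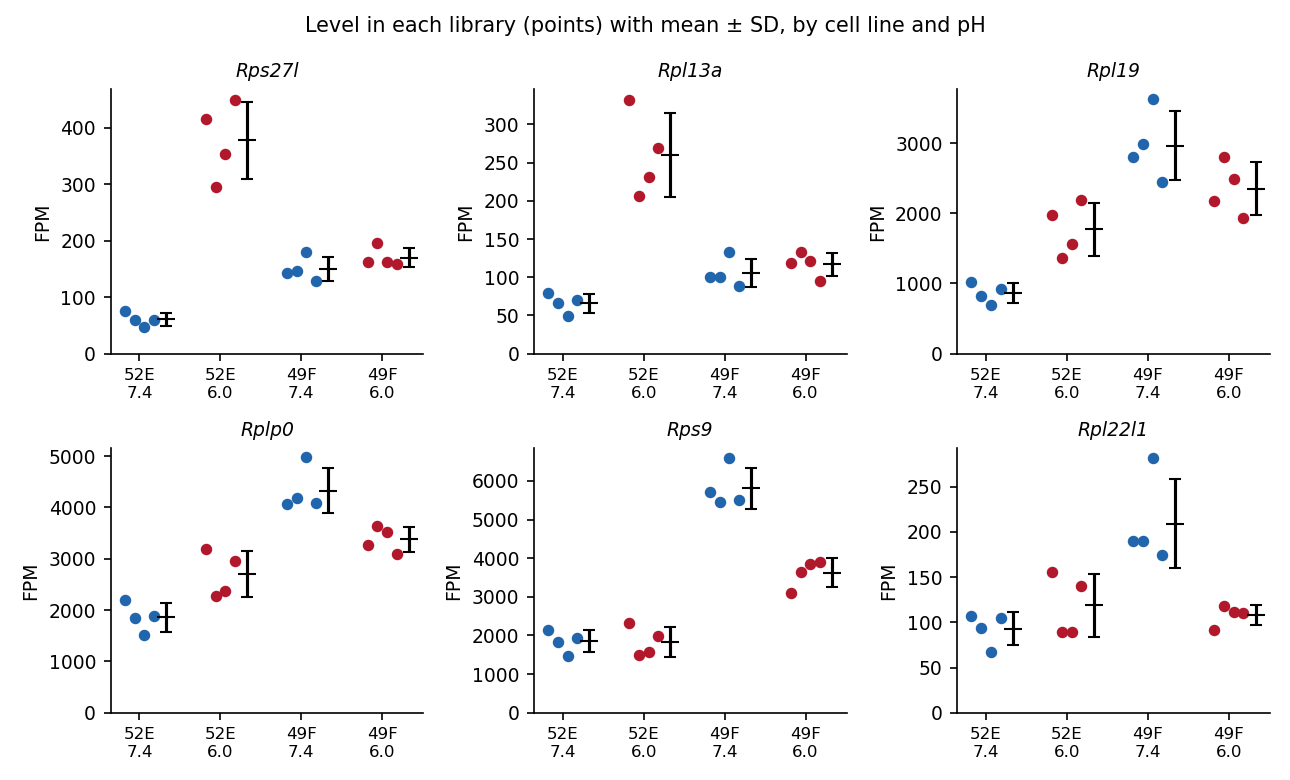
FPM of Rps27l, Rpl13a, Rpl19, Rplp0, Rps9 and Rpl22l1 in each library (points) with the mean and SD of each group of 4, for NRK-52E (52E) and NRK-49F (49F) at pH 7.4 and 6.0; each vertical axis starts at 0 and has its own scale. Rps27l in NRK-52E goes from a mean of 60.9 to 378 FPM, and Rps9 in NRK-49F from 5813 to 3627 FPM.

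Several ribosomal proteins have a paralog that can take their place in some tissues. Rpl39l, a paralog of Rpl39 known from testis, had 73.4, 64.7, 48.3 and 63.1 FPM in NRK-52E at pH 7.4 and 93.7, 69.7, 80.2 and 139.5 FPM at pH 6.0. In NRK-49F it had 3, 0, 2 and 1 counts at pH 7.4 and 1, 2, 4 and 12 counts at pH 6.0. It was thus present in all NRK-52E libraries and close to absent in all NRK-49F libraries at both pH values; within NRK-52E the groups overlapped, with N4 below N1, and it was not called (0.64 ± 0.21, edgeR adjusted p = 0.0189). Rpl39 had 68.0, 50.9, 32.6 and 51.7 FPM in NRK-52E at pH 7.4 and 122, 69.1, 68.8 and 124 FPM at pH 6.0. It rose by 0.93 ± 0.25 on the log2 scale, with N7 only just above N1, and the call was lost without N2, N3, N5, N6 or N8. Rpl7l1, which resembles Rpl7, had 58.1, 59.1, 55.7 and 62.0 FPM in NRK-52E at pH 7.4 and 53.6, 63.0, 59.6 and 43.7 FPM at pH 6.0. The groups overlapped, with N8 the lowest library, whereas Rpl7 rose by 0.54 ± 0.15 (edgeR adjusted p = 0.00866), a call lost without N1, N2, N3, N5, N6 or N8. Rpl10 rose by 0.54 ± 0.15 and Rpl36a by 0.72 ± 0.20 in NRK-52E, both calls lost without N2, N3, N5, N6 or N8, and for Rpl36a also without N7. Rpl36al, the paralog of Rpl36a, had 39.3, 28.0, 19.5 and 28.9 FPM at pH 7.4 and 59.6, 38.8, 41.8 and 61.5 FPM at pH 6.0. For it N4 lay marginally below N1 (0.82 ± 0.22, edgeR adjusted p = 0.00621). Rpl3l, Rpl10l and Rps4y2 had at most 7, 6 and 5 counts in a library, so a change was not detectable at this depth. Rpl3 and Rps4x, relatives of Rpl3l and Rps4y2, were not called in NRK-52E (0.03 ± 0.15 and 0.38 ± 0.13).

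The row a name is attached to changed what was read for some genes. The row named Rps27a had 327, 137, 124 and 94.0 FPM in NRK-52E at pH 7.4 and 184, 147, 135 and 249.9 FPM at pH 6.0. N1 was the highest library, and no difference was called (0.09 ± 0.35). A further row of that name, on the chromosome of the RefSeq gene, had 636, 622, 490.3 and 799 FPM at pH 7.4 and 1722, 1048, 1280.4 and 2019.9 FPM at pH 6.0. In this row all acidosis libraries were higher, by 1.27 ± 0.21 on the log2 scale (edgeR adjusted p = 0.000347). In all, 9 further rows carry the name of a member with a suffix and fall outside the rule; 6 of them were called higher in NRK-52E at pH 6.0 (28.2% of all genes were), and all 9 had a positive estimate, with 0.79 as the median. The 12 tested genes whose rows lie on another chromosome had a median of 1.0, with 9 called, and the 64 on the RefSeq chromosome had 0.72, with 39 called. These groupings were made after the values were seen.

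At pH 7.4 the family was lower in NRK-52E than in NRK-49F. Of 77 genes tested, 73 were lower in NRK-52E, while 33.3% of all 14026 genes tested were, and the median log2 fold change was -1.03, against 0.03 over all genes. Higher in NRK-52E were 2 genes, Rpl7l1 and Rpl39l, while 33.3% of all genes were higher. Cell line and growth support, filter or plastic, cannot be told apart in these comparisons. Among genes lower in NRK-52E that reached 10 FPM in NRK-49F, the largest called differences were those of Rplp2 (-2.34 ± 0.14, edgeR adjusted p = 3.47e-08), Rpl38 (-2.21 ± 0.29) and Rps18l1 (-1.79 ± 0.20). The row named Rpl38 had 11.6, 7.72, 4.83 and 9.56 FPM in NRK-52E and 27.5, 39.3, 63.3 and 34.3 FPM in NRK-49F at pH 7.4. All NRK-52E libraries were below all NRK-49F libraries, as they were for Rplp2 and Rps18l1. Rpl7l1 had 46.6, 41.1, 32.4 and 46.7 FPM in NRK-49F at pH 7.4. These values lay below those of NRK-52E at that pH (0.58 ± 0.11, edgeR adjusted p = 0.000532). With library totals, the median of all genes moved to 0.34 and that of the family to -0.73, with 67 genes lower and 65.7% of all called genes higher, against 50% with TMM. Within the libraries numbered 21 the median was -0.99, with 1 gene higher and 46 lower (19.4% and 20.5% of all genes).

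At pH 6.0 most of this difference was gone from the calls. Of 78 genes tested, 7 were lower in NRK-52E, while 31.3% of all 13796 genes tested were, and 3 were higher, while 28.6% of all genes were. The median log2 fold change was -0.14, against -0.03 over all genes; with library totals it was 0.00, with the median of all genes at 0.12, and as many estimates were positive as negative. Among the 7 lower genes were Rps9 (-0.98 ± 0.16), Rplp2 (-1.16 ± 0.27), Rps24 (-0.81 ± 0.18), Rpl11, Rpl10 and Rpl23, the last named after its value was seen, and all 7 were also lower at pH 7.4. Rps24, a small subunit protein, had 811, 519.7, 616 and 928 FPM in NRK-52E and 1082, 1519, 1261 and 1191 FPM in NRK-49F at pH 6.0. All NRK-52E libraries were below all NRK-49F libraries. The call of Rpl11 was lost without N3, N4, N7, N11, N12, N15 or N16, that of Rpl10 without N7 and that of Rplp2 without N8. The 3 higher genes were Rpl39l, Rps27l and Rpl13a. Rps27l and Rpl13a were lower in NRK-52E at pH 7.4 (-1.22 ± 0.14 and -0.60 ± 0.15) and higher at pH 6.0 (1.16 ± 0.14 and 1.16 ± 0.16), the only genes of the family called in opposite directions at the 2 pH values. Of the 73 genes lower at pH 7.4, 64 were not called at pH 6.0, which does not show that the lines were equal there. Without N8, 12 genes were lower, without N7, 4 were, and with the number in the column names as a covariate, 2 were. The shares of all genes in these 3 fits are not given. Within the libraries numbered 21 the median was -0.16, with 3 genes higher and 4 lower (24.2% and 27.2% of all genes). The comparisons between lines and between pH values share their libraries.

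Other genes of translation were taken from lists of known members, whose counts stand beside 28.2% of all genes higher and 28.5% lower in NRK-52E, and 18.4% and 19.4% in NRK-49F. Of ribosomal proteins with other names, Fau, Rack1 and Rpl36al were called higher in NRK-52E at pH 6.0, and Rpsa was not (0.46 ± 0.16). Fau encodes the small subunit protein Rps30 as a fusion, but the row of that name lies on another chromosome than the RefSeq gene. This row went from 13.7 ± 1.93 to 39.1 ± 16.3 FPM (log2 fold change 1.5 ± 0.27). Of 17 tested translation factors and related genes whose mRNAs carry a terminal oligopyrimidine tract, 6 (35.3%) were higher in NRK-52E, not far from the share of all genes. Lower there were 0, while 28.5% of all genes were. The median over the 17 was 0.30, with 15 positive estimates. In NRK-49F 2 (11.8%) were higher, Nap1l1 and Pabpc1, a smaller share than of all genes, and 0 were lower, while 19.4% of all genes were. The median there was 0.00. Among 11 subunits of eIF3, 7 (63.6%) were higher and 0 lower in NRK-52E. In NRK-49F 0 were higher and 1 (9.09%), Eif3k, was lower. Mitochondrial ribosomal proteins, encoded by other genes for the ribosome of mitochondria, had 29 of 74 genes (39.2%) higher and 3 (4.05%) lower in NRK-52E, with a median of 0.33. In NRK-49F 11 (14.9%) were higher and 5 (6.76%) lower, both below the shares of all genes, with a median of 0.05. Their interaction median was 0.33, with 12 (16.2%) called more positive in NRK-52E and 1 (1.35%), Mrps2, more negative, against 19.3% and 17.5% of all genes.

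The list of initiation factors of the eIF2, eIF2B and eIF4 groups also holds Eif1. Of its 22 genes, 12 (54.5%) were higher and 1 (4.55%), Eif4g3, lower in NRK-52E, where 28.2% and 28.5% of all genes were. Eif1, which helps select the start codon, went from 305 ± 29.5 to 1415 ± 290.4 FPM (log2 fold change 2.22 ± 0.14), and Eif2s2, a subunit of eIF2, from 107 ± 10.7 to 305 ± 24.3 FPM (log2 fold change 1.53 ± 0.10). Eif2b3, a subunit of the exchange factor eIF2B, went from 21.9 ± 0.581 to 70.4 ± 16.1 FPM (log2 fold change 1.70 ± 0.15). In NRK-49F 7 (31.8%) were higher and 0 lower, where 18.4% and 19.4% of all genes were. Among the 7 were Eif2b3 again and Eif2b2, another subunit of eIF2B. The list of mTORC1 and its controls had 9 of 23 genes (39.1%) higher and 7 (30.4%) lower in NRK-52E, the lower share near that of all genes. Sesn2 and Ddit4, which restrain mTORC1, went from 28.9 ± 3.23 to 213 ± 61.9 FPM (log2 fold change 2.89 ± 0.20) and from 30.9 ± 2.83 to 161 ± 51.8 FPM (log2 fold change 2.39 ± 0.20). Deptor and Akt1s1, which also inhibit mTORC1, were lower instead, from 28.4 ± 7.44 to 12.7 ± 5.54 FPM (log2 fold change -1.15 ± 0.32) and from 72.8 ± 6.61 to 38.7 ± 7.78 FPM (log2 fold change -0.90 ± 0.14); Deptor was called higher in NRK-49F (1.1 ± 0.30). Eif4ebp1, the translational repressor that mTORC1 inactivates, went from 53.3 ± 9.87 to 252 ± 65.0 FPM (log2 fold change 2.26 ± 0.18). Mlst8, a subunit of mTORC1, went from 26.1 ± 0.827 to 8.05 ± 1.69 FPM (log2 fold change -1.68 ± 0.16). In NRK-49F 7 of the 23 (30.4%) were higher and 4 (17.4%) lower, where 18.4% and 19.4% of all genes were. Among the higher genes there were Myc, a transcription factor that drives ribosome production, from 20.3 ± 0.950 to 77.7 ± 19.4 FPM (log2 fold change 1.93 ± 0.16), and Larp1, from 34.1 ± 9.83 to 60.2 ± 7.38 FPM (log2 fold change 0.82 ± 0.18). In NRK-52E, Myc was called lower, with means of 21.1 and 13.8 FPM (-0.60 ± 0.15, edgeR adjusted p = 0.00443), and its interaction was -2.55 ± 0.23. Larp1 was not called there (0.43 ± 0.26). The part of these genes in the levels of ribosomal protein genes was not tested. Of 18 genes of ribosome rescue and quality control, 9 (50%) were higher and 1 (5.56%) lower in each line, Ltn1 in NRK-52E and Edf1 in NRK-49F. In NRK-52E the rescue factors Hbs1l and Pelo, which act as a pair on stalled ribosomes, went from 51.1 ± 1.04 to 152 ± 6.86 FPM (log2 fold change 1.59 ± 0.07) and from 66.0 ± 5.69 to 189 ± 26.8 FPM (log2 fold change 1.53 ± 0.11).

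Since the genes moved together, the sequence around their annotated starts was read from RefSeq promoters (GRCr8). Of the genes whose row lies on the RefSeq chromosome, 53 were matched by name. From 50 bases before to 50 bases after the start, 35 of them (66.0%) held an unbroken run of at least 10 C or T on the sense strand, against 18% of all 27457 promoters in the table. Runs of at least 10 A or G, the same on the other strand, were found in 7.55% of the 53 and in 17.4% of all. The letters CTTTCC, which can lie inside such a run, were found in 26.4% on the sense strand, against 4.55% of all, and in 3.77% on the other strand, against 4.47% of all. The run was held by 20 of 29 genes called higher in NRK-52E and by 14 of 21 that were tested and not called, and CTTTCC by 11 and 3 of them; no test was made of these shares. From 30 bases before to 20 bases after the start, 17 of 22 named genes held a run of at least 6 C or T and 5 did not. For this shorter run and window no share of all promoters is given, so the 17 cannot be set against one. They include Rpl3l and Rps4y2, which had at most 7 and 5 counts in a library. Shown are 6 of the 17, chosen after the windows were seen, with the longest such run in capitals, and then all 5 without one, Rps27l, Rpl22l1, Rpl7l1, Rpl11 and Rpl3.
Rpl19, chr10:83519034-83519083, plus strand: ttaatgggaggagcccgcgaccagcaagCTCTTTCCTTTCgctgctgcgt
Rpl13a, chr1:104748894-104748943, minus strand: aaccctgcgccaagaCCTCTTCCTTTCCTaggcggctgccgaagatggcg
Rps27, chr2:177964587-177964636, minus strand: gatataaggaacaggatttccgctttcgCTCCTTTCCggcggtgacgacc
Rps18, chr20:4933715-4933764, plus strand: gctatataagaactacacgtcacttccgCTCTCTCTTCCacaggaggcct
Rps15, chr7:10068096-10068145, minus strand: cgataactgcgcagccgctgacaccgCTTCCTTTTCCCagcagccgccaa
Rps9, chr1:74430418-74430467, minus strand: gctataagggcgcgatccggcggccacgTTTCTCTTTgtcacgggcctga
Rps27l, chr8:76443628-76443677, plus strand: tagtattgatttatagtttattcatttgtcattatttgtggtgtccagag
Rpl22l1, chr2:113683166-113683215, plus strand: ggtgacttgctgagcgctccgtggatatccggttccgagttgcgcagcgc
Rpl7l1, chr9:21695688-21695737, plus strand: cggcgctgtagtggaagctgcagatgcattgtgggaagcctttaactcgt
Rpl11, chr5:153560783-153560832, minus strand: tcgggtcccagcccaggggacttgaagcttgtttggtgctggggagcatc
Rpl3, chr7:113507971-113508020, minus strand: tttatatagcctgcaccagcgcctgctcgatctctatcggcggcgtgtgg
These matches describe letters in a window of a reference and not a site of regulation.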

How the data were processed

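The deposited gene counts were made by the authors from paired reads of poly(A)-enriched RNA, mapped to rn6 and counted with featureCounts, with multi-mapping fragments counted at each match; the submitters' notes list HISAT2 2.1.0, while the study's methods name another aligner. edgeR 4.0.16 (TMM, filterByExpr, quasi-likelihood test) and DESeq2 1.42.0 (Wald test) were fitted to all genes in R 4.3.3. Each pH or line comparison used its 8 libraries, and the interaction used 16. Errors of log2 fold changes are SE from the edgeR F statistic. The code was tested on simulated data. Genes were named if they had the largest called differences, did not overlap between groups and reached a mean of 10 FPM in either group, or came from sets of roles and paralogs. Members and lists were chosen with earlier results of these data known, and the promoter letters searched were chosen after the values were seen. Alternatives changed scaling, filter, tool, threshold, libraries, column number, genes tested and rows counted.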

Additional observations from a re-analysis of the deposited data

Results flagged for a closer look

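In 5 of 128 groups of 4 libraries, 1 library stood apart from the other 3 in a named gene, where chance alone gives about 6.4. Rps27l in NRK-49F at pH 6.0 had 196 FPM in N12, against 159 to 163 FPM in the others. The other cases were N13, of NRK-49F at pH 7.4, in which nearly the whole family was high. Rpl22l1 had 282 FPM there, against 174 to 190.2 FPM. Rplp0 had 4980.3 FPM, against 4072 to 4176 FPM. Rpl36a had 766 FPM, against 592 to 605 FPM, and Rpl36al had 86.1 FPM, against 60.9 to 65.1 FPM.

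The effect of acidosis differed between the lines, by the interaction test, for 22 of the 31 named genes tested for it. Each was more positive in NRK-52E, while 19.3% of all genes tested were. Of the 22, 3 (Rps27l, Rpl13a and Rps29) were named for that difference among other reasons. Rps25 and Rpl30 were named for a rise in NRK-52E, and Rpl22l1, Rps18l1, Rps15 and Rpl17 for a fall in NRK-49F. Such choices favour a positive difference, so the count cannot be judged against the share of all genes. On the log2 scale the difference was 2.45 for Rps27l, 2.06 for Rps29, 1.83 for Rpl13a, 1.62 for Rpl38, 1.5 for Rps18l1 and 1.50 for Rps27. It was 1.41 for Rpl39, 1.37 for Rpl19, 1.35 for Rpl17, 1.3 for Rpl22l1, 1.26 for Rplp2, 1.24 for Rplp1, 1.19 for Rpl30, 1.17 for Rps15 and 1.11 for Rps25. The smaller differences were 1.05 for Rpl32, 0.91 for Rps18, 0.89 for Rplp0, 0.76 for Rpl5, 0.73 for Rpl10, 0.70 for Rpl7 and 0.70 for Rps6. Without N3, the interaction was no longer called for Rps25, Rpl5, Rps18, Rpl32, Rpl10, Rplp2, Rpl38, Rpl7 and Rps6. For Rpl10 it was also lost without N5, for Rplp2 without N5, N9 or N12, and for Rpl38 without N2, N5, N6, N8, N10, N11, N13, N15 or N16. For Rpl7 it was lost also without N2, N5, N6, N8, N9, N10, N11, N13, N15 or N16, and for Rps6 under every omission but those of N1, N4 and N15.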

How the results depend on the processing

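Over all alternatives, the median log2 fold change of ribosomal protein genes stayed between 0.52 and 0.89 in NRK-52E, between -0.32 and -0.12 in NRK-49F and between 0.73 and 1.09 for the interaction. Between the lines it stayed between -1.13 and -0.73 at pH 7.4 and between -0.26 and 0.00 at pH 6.0. For 82 pairs of a named gene and a comparison in which it was called, 1615 of 1816 alternatives kept the call, 201 lost it and 0 reversed it. Within column number 21, 5 genes were higher in NRK-52E, 1 was lower in NRK-49F and 2 had a positive interaction; between the lines, 1 was higher and 46 were lower at pH 7.4, and 4 were lower at pH 6.0. Within 22, 3 were higher in NRK-52E, and within 20, 1 was higher and 4 were lower in NRK-49F; these fits hold fewer libraries. In NRK-49F, 13 genes were lower by DESeq2 alone, 20 at a false discovery rate below 0.05, and 3 with all 16 libraries in 1 fit. The shares of all genes under these 3 settings are not given, so the counts cannot be set against them. With library totals, 37 had a positive interaction, whose median was 0.73, and the median between the lines at pH 7.4 was -0.73, since the median of all genes moved too. Without the 100 most abundant other genes the mean share of counts was 6.21% and 8.57% in NRK-52E at pH 7.4 and 6.0, and 11% and 9.81% in NRK-49F at pH 7.4 and 6.0, since the total is then smaller. At pH 6.0, 12 genes were lower in NRK-52E than in NRK-49F at a rate below 0.05 and 2 with the column number as a covariate, again without the shares of all genes. Leaving out rows on another chromosome and those without counts or a RefSeq name, chosen after seeing the data, left 1 gene higher in NRK-52E at pH 7.4, since Rpl39l is then not counted. Leaving out 1 library gave 3 (without N11 or N16) to 9 (without N12) genes lower in NRK-49F, 28 (without N3) to 67 (without N4) with a positive interaction, and 4 (without N7) to 12 (without N8) lower in NRK-52E at pH 6.0. Where the construction of an alternative does not give it, the cause was not tested.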
